A study of Mus musculus with 12 samples.

Results

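Regulators of the mesenchymal to epithelial transition are described here through 10 genes: Snai1, Snai2, Zeb1, Zeb2, Twist1, Twist2, Grhl2, Esrp1, Esrp2 and Ovol1. They were taken by gene symbol from a table of 24207 genes, from general knowledge, but with earlier results of these data known. All 10 were in the table and passed the filter on low counts, among 14520 genes tested.

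RNA was sequenced from C57BL/6 mouse embryonic fibroblasts carrying the lentiviral constructs FUW-OSKM and FUW-M2rtTA, so that doxycycline switches on the OSKM factors (Oct4, encoded by Pou5f1, with Sox2, Klf4 and Myc). The 12 libraries formed 4 groups of 3. Of the cells induced for 7 days, 1 group had hairpins against both Trim28 and Setdb1, 1 had a hairpin against Trim28, and 1 had a scrambled hairpin (the induced controls). The uninduced cells, labelled day 7 as well, also had a scrambled hairpin. Irradiated embryonic fibroblasts served as feeders for all groups, in ES media, and the labels do not say that they were removed before RNA was extracted. Whether replicates were separate cultures is not stated either. The p-values therefore speak only of the spread among libraries, which may be technical.

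Snai1, Snai2, Zeb1, Zeb2, Twist1 and Twist2 encode transcription factors that repress epithelial genes such as Cdh1, the gene of E-cadherin, and favour the mesenchymal state. Grhl2 and Ovol1 encode transcription factors that maintain epithelial identity and restrain Zeb genes, while Esrp1 and Esrp2 encode RNA-binding proteins that direct epithelial splicing. Fibroblasts driven by the OSKM factors lose mesenchymal and gain epithelial gene expression early in reprogramming.

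The libraries held 11906701 to 19191649 counted reads, and levels are given as CPM (counts per 1e6 reads, scaled by TMM factors). A count of 3 reads in a library corresponded to 0.150 to 0.243 CPM. Trim28, the targeted corepressor, averaged 103 ± 6.41 CPM with both hairpins and 58.5 ± 5.95 CPM with its own hairpin, against 328 ± 38.3 CPM in the induced controls (SD, n = 3 each). Setdb1, a histone methyltransferase gene, averaged 63.1 ± 8.21 CPM with both hairpins and 122 ± 1.36 CPM with the Trim28 hairpin, against 81.3 ± 4.27 CPM in the induced controls. Trim28 was thus reduced less with both hairpins than with its hairpin alone (log2 fold change 0.82 ± 0.10, SE, edgeR adjusted p = 4.30e-05). In uninduced cells, the 8 fibroblast markers summed to 20738 to 24969 CPM and the 5 epithelial markers to 23.0 to 25.7 CPM. A gene is said to have risen or fallen where edgeR's quasi-likelihood test gave a Benjamini-Hochberg adjusted p under 0.05 over all genes tested.

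Induction was examined first, in cells with the scrambled hairpin. All 4 epithelial regulators rose and 5 of the 6 repressors fell. Esrp1, Grhl2 and Ovol1 reached 16.6 to 51.3 CPM in the induced controls, against 0 or 1 read over all 3 libraries of uninduced cells. Snai2, Zeb2 and Twist2 fell by 1.01, 1.01 and 1.03 on the log2 scale, while Snai1 did not pass the test. These 9 changed members stand beside 65.3% of all genes tested that changed, 32.7% upwards and 32.7% downwards, so most genes changed in this comparison. The libraries of the 2 groups did not overlap for 9 of the 10 members, beside 64.6% of all genes. The median log2 fold change was -0.41 over the 10 members and -0.017 over all genes. Split by role, it was -0.88 over the 6 repressors and 9.38 over the 4 epithelial regulators.

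Among the repressors, Snai2 (chromosome 16, 14705852 to 14709395, plus strand), a zinc finger factor of the Snail family, stood at 35.1, 32.5 and 29.9 CPM in the induced controls, against 64.8, 64.7 and 66.7 CPM in uninduced cells. The groups lay far apart, and the uninduced libraries close together. The log2 fold change was -1.01 ± 0.11 (SE, edgeR adjusted p = 4.48e-07). Its relative Snai1 (chromosome 2, 167538195 to 167542814, plus strand) had 20.9, 11.3 and 17.2 CPM in the induced controls, against 24.5, 21.2 and 13.5 CPM in uninduced cells. These groups overlapped, and the log2 fold change of -0.24 ± 0.20 did not pass (adjusted p = 0.314). Without replicate 3 of the uninduced cells, their lowest library, it was -0.45 and passed (adjusted p = 0.0373).

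The Zeb genes encode large zinc finger and homeodomain proteins that bind the promoter of Cdh1. Zeb1 (chromosome 18, 5591860 to 5775467, plus strand) had 126, 115 and 104 CPM in the induced controls, against 200.5, 185 and 195 CPM in uninduced cells. Its log2 fold change was -0.75 ± 0.073 (adjusted p = 1.56e-07). Zeb2 (chromosome 2, 44983634 to 45117395, minus strand) had 50.6, 49.7 and 45.6 CPM in the induced controls, against 94.6, 92.7 and 106 CPM in uninduced cells. Its log2 fold change was -1.01 ± 0.095 (adjusted p = 1.14e-07). In both genes every library of the induced controls lay below every uninduced one.

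The Twist genes encode basic helix-loop-helix factors of mesoderm and connective tissue. Twist1 (chromosome 12, 33957671 to 33959817, plus strand) had 39.8, 31.4 and 34.7 CPM in the induced controls, against 51.0, 52.7 and 54.7 CPM in uninduced cells. Its fall was -0.58 ± 0.086 on the log2 scale (adjusted p = 1.93e-05). Twist2 (chromosome 1, 91801461 to 91848028, plus strand) had 24.3, 13.7 and 16.3 CPM in the induced controls, against 37.5, 41.2 and 33.3 CPM in uninduced cells, a change of -1.03 ± 0.16 (adjusted p = 2.96e-05). Neither gene's groups overlapped, although replicate 1 of the induced controls stood above the other two for both.

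Zeb transcripts are known targets of the miR-200 family, small RNAs of epithelial cells that fall into 2 groups by their seed (bases 2 to 8, in capitals). Their mature sequences are given as the known regulators of both Zeb genes. The miR-200 genes themselves were looked for by symbol and not found in the table of counts, so their levels are not known here. Sequences are from RefSeq (GRCm38.p6).
mmu-miR-200b-3p: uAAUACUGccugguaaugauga
mmu-miR-200c-3p: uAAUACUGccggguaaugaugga
mmu-miR-429-3p: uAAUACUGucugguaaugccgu
mmu-miR-200a-3p: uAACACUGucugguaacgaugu
mmu-miR-141-3p: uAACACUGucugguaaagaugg

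The first 3 share the seed AAUACUG, whose match in a transcript is CAGTATT, and the last 2 share AACACUG, whose match is CAGTGTT. The longest annotated 3′ UTR of Zeb2, 4941 bases, held CAGTATT 5 times and CAGTGTT 4 times. The shorter one of Zeb1, 2401 bases, also held them 5 and 4 times. Of genes with a 3′ UTR within 10% of the length of that of Zeb2, 40.6% held at least 1 CAGTATT and 51.4% at least 1 CAGTGTT. For the length of Zeb1 these shares were 24.2% and 29.4%. Snai2 held 1 of each, Snai1 held 1 CAGTATT, Grhl2 held 1 CAGTGTT, and in the other 5 members these letters were not found. Of the Zeb2 matches, 3 are shown with their surroundings, minus strand, from GENCODE M21 (GRCm38), with the matches in capitals.
chr2:44988172-44988198: gcccgcactaccatacatCAGTATTtt
chr2:44988107-44988133: gcccgcactacagtgcatCAGTATTac
chr2:44988356-44988382: ttatgcaaaaattttgtaCAGTGTTaa

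The 250 bases before the start sites of Twist1 and Twist2 are given to set the relatives side by side, plus strand, from RefSeq (GRCm38.p6). Capitals mark the letters of the TATA box, TATAAA, and of the GC box, GGGCGG, each on either strand. The E-box CANNTG, which basic helix-loop-helix factors bind, was also searched and is not in these windows. It is in 66.2% of 32841 promoter windows of this length, while TATAAA is in 12.4% and GGGCGG in 32.7%, each on either strand. The window of Twist1 held TATAAA 1 time and GGGCGG 1 time, and that of Twist2 held GGGCGG 4 times. These are matches of letters only, at any distance from the start site.
Twist1, chr12:33957421-33957670: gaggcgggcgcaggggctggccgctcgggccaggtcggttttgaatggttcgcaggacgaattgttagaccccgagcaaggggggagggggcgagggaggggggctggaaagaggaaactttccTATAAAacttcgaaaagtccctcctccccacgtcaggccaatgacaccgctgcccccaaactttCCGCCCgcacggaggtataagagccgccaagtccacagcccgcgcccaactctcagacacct
Twist2, chr1:91801211-91801460: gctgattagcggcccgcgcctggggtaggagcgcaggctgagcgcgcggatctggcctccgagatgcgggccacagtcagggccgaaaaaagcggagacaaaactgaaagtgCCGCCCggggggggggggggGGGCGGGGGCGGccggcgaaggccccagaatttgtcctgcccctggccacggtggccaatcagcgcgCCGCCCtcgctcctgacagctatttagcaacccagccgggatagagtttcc

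Of the epithelial regulators, Esrp2 (chromosome 8, 106130319 to 106136974, minus strand) was the only 1 with clear reads in uninduced cells. It had 50.6, 55.4 and 67.0 CPM in the induced controls, against 2.94, 3.41 and 2.33 CPM in uninduced cells, a log2 fold change of 4.32 ± 0.19 (adjusted p = 1.53e-12). Its relative Esrp1 (chromosome 4, 11331933 to 11386783, minus strand) had 42.7, 56.0 and 55.3 CPM in the induced controls and no read in any uninduced library. With 2526 reads over the 3 induced libraries, it was at least 801-fold higher, taking 3 reads over the uninduced group as the floor. Esrp2 lies over part of Nfatc3, a gene on the other strand with 111 ± 8.33 CPM in the induced controls and 135 ± 12.6 CPM in uninduced cells, and without stated use of strand their shared reads cannot be told apart.

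Grhl2 (chromosome 15, 37233036 to 37363569, plus strand), a grainyhead-like factor, had 14.3, 17.0 and 18.4 CPM in the induced controls, against 0, 0.0643 and 0 CPM in uninduced cells. This is 823 reads against 1, a ratio of 783 with a 95% counting interval of 140.1 to 30956. Ovol1 (chromosome 19, 5549137 to 5560575, minus strand), a zinc finger factor, had 19.9, 21.1 and 25.1 CPM in the induced controls, against 0.0625, 0 and 0 CPM in uninduced cells. This is 1103 reads against 1, a ratio of 1049 with an interval of 188 to 41476. These intervals and floors cover counting error only, since reads without identifiers for each molecule can be copies. In bulk RNA, a larger share of cells of a type and more RNA per cell cannot be told apart.

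To compare members with each other, CPM were divided by the length in kilobases of the longest coding transcript. In uninduced cells the levels per kilobase were 33.4 ± 1.32 for Zeb1, 32.4 ± 1.15 for Twist1 and 32.3 ± 0.561 for Snai2, which did not differ beyond their SD (n = 3). Twist2 with 14.8 ± 1.57, Snai1 with 12.2 ± 3.49 and Zeb2 with 10.7 ± 0.782 followed, each within the SD of its neighbour. In the induced controls the order per kilobase was Twist1 with 21.7 ± 2.60, Zeb1 with 19.8 ± 1.87, Esrp2 with 16.3 ± 2.38, Snai2 with 16.1 ± 1.29, Esrp1 with 13.3 ± 1.94, Snai1 with 10.2 ± 2.98, Ovol1 with 7.42 ± 0.904, Twist2 with 7.17 ± 2.19, Zeb2 with 5.33 ± 0.293 and Grhl2 with 3.35 ± 0.420. Neighbours in this order overlapped within their SD except Zeb2 and Grhl2. The Esrp transcripts were thus read within the range of the repressors in the induced controls, and Grhl2 below it.

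**Figure D1:**
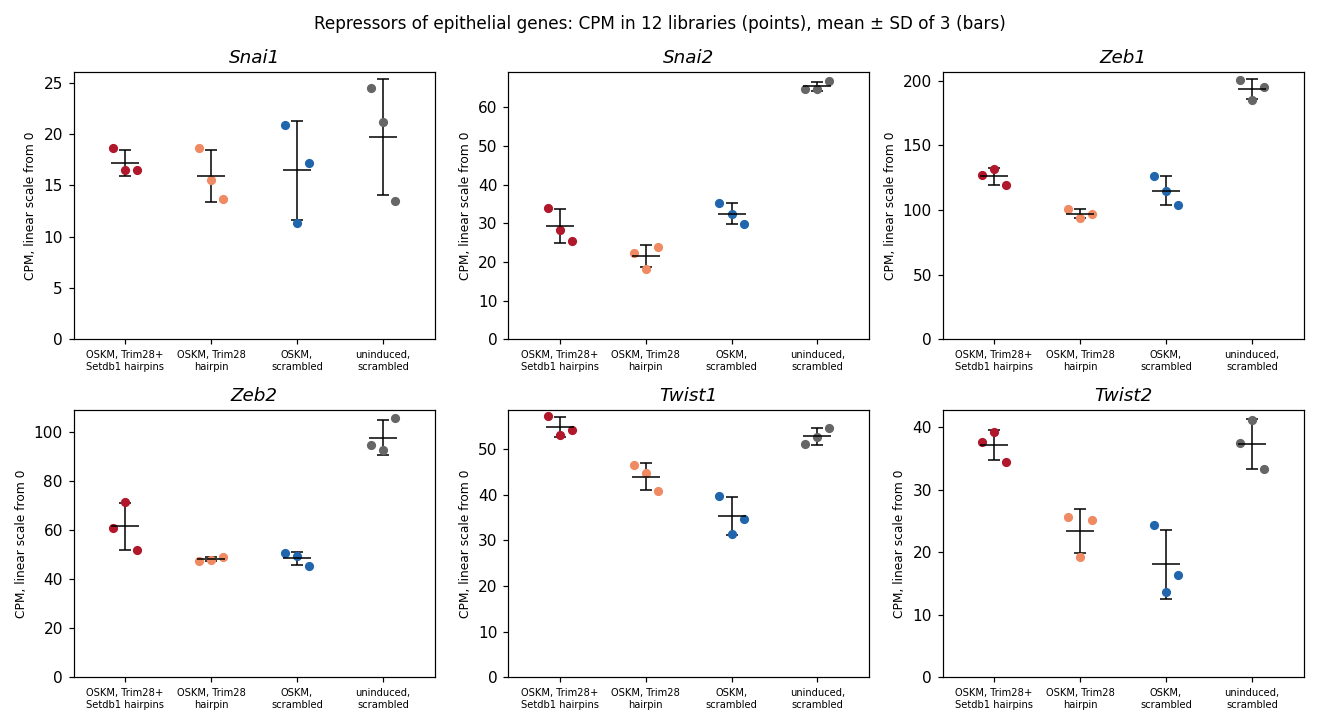
Level in CPM (y axes, linear from 0) of the 6 repressors in each of the 12 libraries (points), by group (x axes), with mean and SD of 3 libraries (bars). Snai2, Zeb1 and Zeb2 are lower in all 9 induced libraries than in the uninduced ones, while Twist1 and Twist2 with both hairpins overlap the uninduced libraries.

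**Figure D2:**
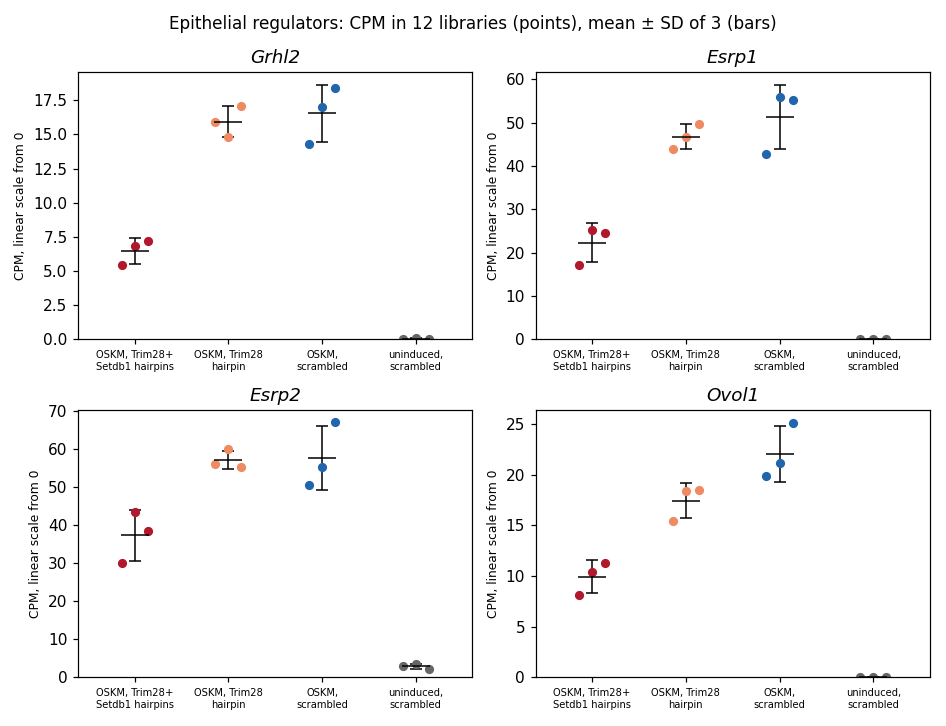
Level in CPM (y axes, linear from 0) of the 4 epithelial regulators in each of the 12 libraries (points), by group (x axes), with mean and SD of 3 libraries (bars). The 3 libraries with both hairpins lie below the other 6 induced libraries for each gene, and the uninduced ones at or near 0 except for Esrp2, at 2.33 to 3.41 CPM.

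The remaining comparisons asked what the hairpins changed in induced cells. With both hairpins, the epithelial regulators Grhl2, Esrp1, Ovol1 and Esrp2 fell against the induced controls and the repressors Twist1, Twist2 and Zeb2 rose. Under the Trim28 hairpin alone, Snai2 and Zeb1 fell and Twist1 rose, and no epithelial regulator passed the test. Set against the Trim28 hairpin alone, both hairpins gave lower levels of all 4 epithelial regulators and higher levels of 5 of the 6 repressors. These 3 comparisons share groups, so they are not independent of each other.

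In counts, 7 of the 10 members changed with both hairpins against the induced controls (3 rose and 4 fell), beside 36.7% of all genes tested. The Trim28 hairpin changed 3 members (1 rose and 2 fell), beside 24.9% of all genes, a share near the background. Of the 10 members, 9 differed between both hairpins and the Trim28 hairpin (5 rose and 4 fell), beside 21.7% of all genes. Libraries did not overlap for 7, 4 and 9 of the 10 members in these comparisons, beside 45.1%, 38.9% and 46.9% of all genes. The median log2 fold changes of the 10 members were -0.054, -0.063 and 0.22 in these comparisons, and those of all genes were 0.00093, -0.0016 and 0.0043. Split by role, the medians were 0.24, -0.038 and 0.36 for the 6 repressors and -1.18, -0.095 and -0.94 for the 4 epithelial regulators. Without replicate 2 of the cells with the Trim28 hairpin, 1 member changed with that hairpin and 7 changed between both hairpins and that hairpin.

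Twist1 had 57.2, 53.1 and 54.1 CPM with both hairpins and 46.5, 44.7 and 40.7 CPM with the Trim28 hairpin, against 39.8, 31.4 and 34.7 CPM in the induced controls. The 3 groups did not overlap. The log2 fold change against the induced controls was 0.63 ± 0.085 with both hairpins (SE, edgeR adjusted p = 3.16e-05) and 0.31 ± 0.086 with the Trim28 hairpin (adjusted p = 0.0137). Both hairpins against the Trim28 hairpin gave 0.32 ± 0.084 (adjusted p = 0.0131). The smaller 2 rises were each lost when certain single libraries were left out: replicate 2 or 3 of the induced controls or replicate 1 or 2 with the Trim28 hairpin for the first (adjusted p up to 0.0742), and replicate 3 with the Trim28 hairpin or replicate 1 with both hairpins for the second (up to 0.0786).

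Twist2 had 37.6, 39.2 and 34.5 CPM with both hairpins and 25.7, 19.3 and 25.2 CPM with the Trim28 hairpin, against 24.3, 13.7 and 16.3 CPM in the induced controls. All libraries with both hairpins lay above the other induced libraries, and those with the Trim28 hairpin overlapped the induced controls. With both hairpins the log2 fold change was 1.02 ± 0.16 relative to the induced controls (adjusted p = 0.000119), and relative to the Trim28 hairpin 0.67 ± 0.16 (adjusted p = 0.00615). The Trim28 hairpin itself gave 0.36 ± 0.16, which did not pass (adjusted p = 0.125). Leaving out replicate 1 of the induced controls, their highest library, made it 0.61 (adjusted p = 0.00343). With both hairpins, Twist1 averaged 54.8 ± 2.14 CPM, against 52.8 ± 1.87 CPM in uninduced cells, and Twist2 37.1 ± 2.39 CPM, against 37.3 ± 3.97 CPM. Both pairs of groups overlapped, and this comparison was not tested.

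Snai2 had 34.0, 28.3 and 25.4 CPM with both hairpins and 22.4, 18.2 and 23.8 CPM with the Trim28 hairpin, against 35.1, 32.5 and 29.9 CPM in the induced controls. The libraries with the Trim28 hairpin were the lowest of all 12. Its log2 fold change was -0.60 ± 0.11 with that hairpin (adjusted p = 0.000961), and -0.15 ± 0.11 with both hairpins (adjusted p = 0.291). Against the Trim28 hairpin, both hairpins gave a rise of 0.44 ± 0.11 (adjusted p = 0.0107), which did not pass without replicate 2 with the Trim28 hairpin (adjusted p = 0.0745) or replicate 1 with both hairpins (adjusted p = 0.0734). Snai1 averaged 17.3 ± 1.26 CPM with both hairpins and 16.0 ± 2.51 CPM with the Trim28 hairpin, against 16.5 ± 4.84 CPM in the induced controls, and passed no test of the hairpins (adjusted p of 0.735 to 0.878).

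Zeb1 had 127, 132 and 119 CPM with both hairpins and 101, 93.7 and 96.8 CPM with the Trim28 hairpin, against 126, 115 and 104 CPM in the induced controls. The libraries with the Trim28 hairpin lay below all others. The log2 fold change was -0.24 ± 0.074 with that hairpin (adjusted p = 0.0231) and 0.13 ± 0.073 with both hairpins (adjusted p = 0.177). Both hairpins against the Trim28 hairpin gave 0.38 ± 0.074 (adjusted p = 0.00186). The fall with the Trim28 hairpin did not pass when replicate 1 of the induced controls was left out (adjusted p = 0.0735), or replicate 2 (0.0843) or replicate 3 (0.0565) with that hairpin.

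Zeb2 had 61.1, 71.5 and 52.1 CPM with both hairpins and 47.6, 48.0 and 49.3 CPM with the Trim28 hairpin, against 50.6, 49.7 and 45.6 CPM in the induced controls. The libraries with both hairpins were the highest of the induced ones but spread widely, while those with the Trim28 hairpin lay among the controls. Both hairpins raised Zeb2 by 0.34 ± 0.096 over the induced controls (adjusted p = 0.0109) and by 0.35 ± 0.096 over the Trim28 hairpin (adjusted p = 0.0156). The first rise did not pass when leaving out replicate 3 of the induced controls (adjusted p = 0.0585) or replicate 2 with both hairpins (0.0793). The second did not pass without replicate 1 (0.0511) or 2 (0.0594) with the Trim28 hairpin or replicate 2 with both hairpins (0.0805).

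The epithelial regulators lay lower with both hairpins than in the other induced groups. Grhl2 had 5.41, 6.83 and 7.19 CPM with both hairpins and 15.9, 14.8 and 17.1 CPM with the Trim28 hairpin, against 14.3, 17.0 and 18.4 CPM in the induced controls. Its log2 fold change was -1.36 ± 0.14 with both hairpins (adjusted p = 1.84e-06) and -0.058 ± 0.13 with the Trim28 hairpin (adjusted p = 0.784). Both hairpins against the Trim28 hairpin gave -1.30 ± 0.14 (adjusted p = 1.24e-05). With both hairpins Grhl2 was still 305-fold higher than in uninduced cells (341 reads against 1, 95% counting interval 54.4 to 12082).

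Esrp1 had 17.1, 25.3 and 24.5 CPM with both hairpins and 43.9, 46.7 and 49.8 CPM with the Trim28 hairpin, against 42.7, 56.0 and 55.3 CPM in the induced controls. It fell by 1.20 on the log2 scale with both hairpins (SE 0.14, adjusted p = 1.42e-05), while the change with the Trim28 hairpin was -0.13 ± 0.13 (adjusted p = 0.517). Esrp2 had 30.2, 43.4 and 38.6 CPM with both hairpins and 56.2, 59.9 and 55.4 CPM with the Trim28 hairpin, against 50.6, 55.4 and 67.0 CPM in the induced controls. Its changes were -0.63 ± 0.12 with both hairpins (adjusted p = 0.000862) and -0.015 ± 0.12 with the Trim28 hairpin (adjusted p = 0.941). Relative to the Trim28 hairpin, both hairpins changed Esrp1 by -1.07 ± 0.14 (adjusted p = 0.000116) and Esrp2 by -0.61 ± 0.12 (adjusted p = 0.00217). For both genes replicate 1 was the lowest of the libraries with both hairpins, and these libraries did not overlap the other induced ones.

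Ovol1 had 8.12, 10.4 and 11.3 CPM with both hairpins and 15.4, 18.4 and 18.5 CPM with the Trim28 hairpin, against 19.9, 21.1 and 25.1 CPM in the induced controls. The 3 groups did not overlap. With both hairpins the log2 fold change was -1.16 ± 0.14 relative to the induced controls (adjusted p = 8.59e-06), and relative to the Trim28 hairpin -0.81 ± 0.14 (adjusted p = 0.000601). The Trim28 hairpin itself gave -0.34 ± 0.13 and missed the threshold (adjusted p = 0.0679). It passed with replicate number as a block (adjusted p = 0.0232), with no filter on low counts (0.0280), and without replicate 1 of the induced controls (0.0341) or of the cells with both hairpins (0.0490).

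Other measures also differed in the cells with both hairpins, and several of them differed with the Trim28 hairpin too. The 4 factors also fell against the induced controls, with log2 fold changes of -0.41 ± 0.11 for Pou5f1 (adjusted p = 0.00916), -0.54 ± 0.17 for Sox2 (0.0237, lost with DESeq2 and without replicate 1 or 3 of either group), -0.54 ± 0.096 for Klf4 (0.000396) and -0.42 ± 0.11 for Myc (0.00647). None of the 4 passed with the Trim28 hairpin, where the changes were 0.24, 0.24, 0.08 and 0.12. In uninduced cells these genes averaged 19.5, 11.1, 130.1 and 89.3 CPM, in the same order. Counts per gene do not show whether reads came from the lentiviral factors or from the cells' own genes. Of all genes tested, 18.5% fell with both hairpins and 11.8% with the Trim28 hairpin. The 5 epithelial markers all fell with both hairpins, to a sum of 911 to 1127 CPM, against 1534 to 1959 CPM in the induced controls. With the Trim28 hairpin 3 of the 5 fell (1539.9 to 1771 CPM). Of 5 pluripotent cell markers, 4 fell with both hairpins (median -1.27) and 4 with the Trim28 hairpin (median -1.47). Of 3 keratinocyte markers tested, 2 fell with both hairpins and 1 with the Trim28 hairpin. These lists share genes with those below: Cdh1 and Epcam recur among the epithelial target genes, and Trp63 among the epithelial transcription factors. Of 5 macrophage markers present, 3 were tested, of which 3 fell with both hairpins and 2 with the Trim28 hairpin. The list summed to 9.94 to 12.2 CPM with both hairpins and 13.5 to 16.4 CPM with the Trim28 hairpin, against 20.7 to 22.7 CPM in the induced controls and 5.18 to 5.79 CPM in uninduced cells. Ptprc, a defining leukocyte gene, and Emr1 were too low to be tested. Ptprc stood at 0.397 CPM with both hairpins and 0.219 CPM with the Trim28 hairpin. It stood at 0.385 CPM in the induced controls and 0.212 CPM in uninduced cells. Emr1 stood at 0.0570 CPM with both hairpins and 0 CPM with the Trim28 hairpin. Its induced controls had 0.264 CPM and its uninduced cells 0.277 CPM. The part of factor levels and cell makeup in the result was not tested.

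**Figure D3:**
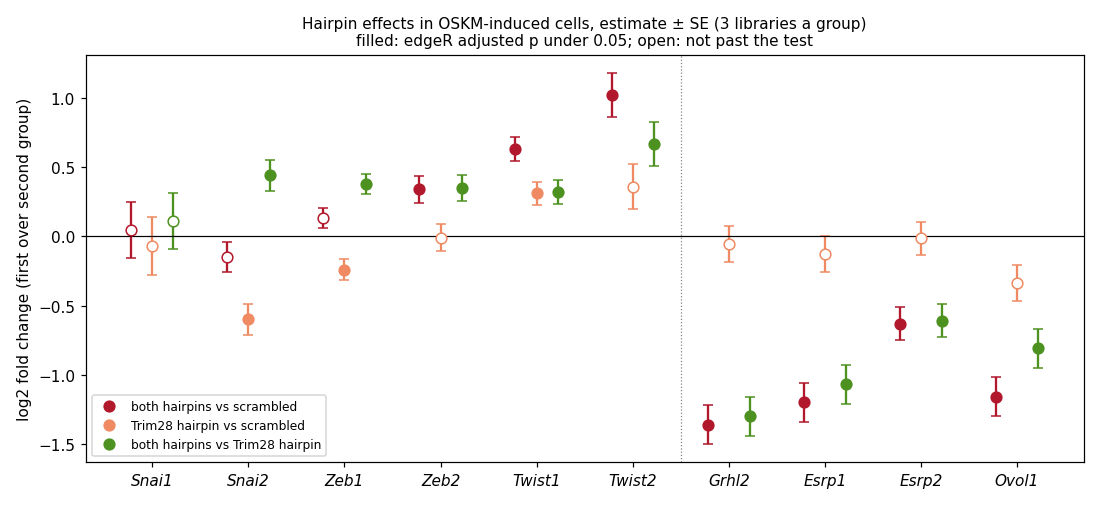
Log2 fold change (y axis, first over second group) with SE for each of the 10 members (x axis) in the 3 comparisons between induced groups (colours), with filled points where the edgeR adjusted p was under 0.05. The 4 epithelial regulators, right of the dotted line, lie between -1.36 and -0.61 in the 2 comparisons that involve both hairpins and near 0 with the Trim28 hairpin except Ovol1 at -0.34.

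Relatives were then compared within each library, as the log2 ratio of their read counts, where library size drops out. Exact two-sided permutation tests of 3 against 3 libraries cannot give a p below 0.1, so none of these 24 tests could pass 0.05, and the lowest adjusted p over the 24 was 0.171. The Esrp2 to Esrp1 ratio was 0.82, 0.78 and 0.65 with both hairpins and 0.36, 0.36 and 0.15 with the Trim28 hairpin, against 0.25, -0.015 and 0.28 in the induced controls. With both hairpins the ratio was higher by 0.58 against the induced controls and by 0.46 against the Trim28 hairpin, differences that this test could not call (exact p = 0.1 each, adjusted 0.171). The Twist2 to Twist1 ratio was -0.60, -0.44 and -0.65 with both hairpins, against -0.71, -1.20 and -1.09 in the induced controls, a difference of 0.43 (exact p = 0.1, adjusted 0.171). The libraries of the 2 groups did not overlap in either ratio.

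The Zeb2 to Zeb1 ratio was -1.08, -0.97 and -0.97 with the Trim28 hairpin, against -1.31, -1.21 and -1.19 in the induced controls, a difference of 0.23 without overlap (exact p = 0.1, adjusted 0.171). With both hairpins it was -1.06, -0.89 and -1.19, a similar difference of 0.20 from the induced controls (exact p = 0.1, adjusted 0.171). These groups did not overlap either, although their nearest libraries both round to -1.19. The induced controls in turn differed by -0.25 from uninduced cells, which had -1.08, -1.0 and -0.88 (exact p = 0.1, adjusted 0.171). Grhl2 and Zeb1, which are known to repress each other, differed by a log2 ratio of -4.28 ± 0.25 with both hairpins and -2.61 ± 0.094 with the Trim28 hairpin, against -2.80 ± 0.32 in the induced controls (SD, n = 3 each). The Ovol1 to Zeb1 ratio was -3.67 ± 0.29 with both hairpins and -2.48 ± 0.20 with the Trim28 hairpin, against -2.38 ± 0.31 in the induced controls. The Snai2 to Snai1 ratio overlapped between the groups in all 4 comparisons (exact p of 0.200 to 0.5, adjusted 0.282 to 0.571).

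**Figure D4:**
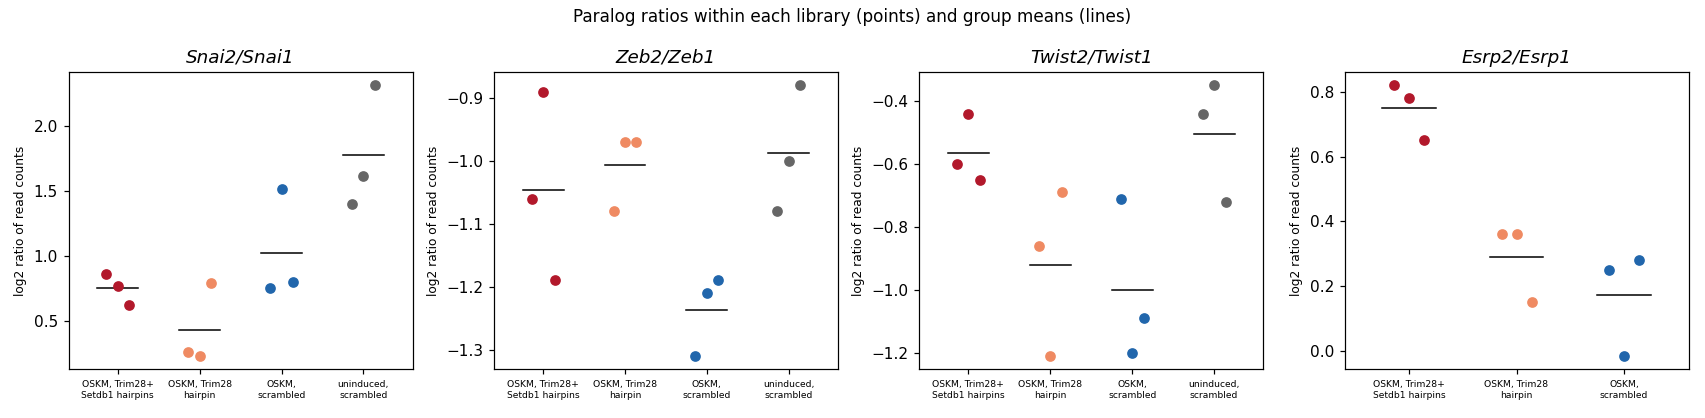
Log2 ratio of read counts of 2 related genes within a library (y axes, not from 0; points) and group means (lines) by group (x axes), with the uninduced cells left out for Esrp2 to Esrp1, where Esrp1 had no read. The Esrp2 to Esrp1 ratio is 0.65 to 0.82 with both hairpins and -0.015 to 0.36 in the other 6 induced libraries.

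Genes known to lie under these regulators were followed next. Of 13 epithelial genes known as their targets, all 13 rose on induction, beside 32.7% of all genes (median log2 fold change 8.10, against -0.017 for all genes). Cdh1 rose to 343 ± 40.6 CPM in the induced controls, against 6.11 ± 0.427 CPM in uninduced cells (log2 fold change 5.81 ± 0.14, adjusted p = 2.62e-15). Cldn4, a tight junction claudin, rose by 10.18 ± 0.62 (adjusted p = 1.68e-15), and Dsp, the desmosome gene of desmoplakin, by 4.61 ± 0.10 (adjusted p = 5.29e-15).

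Both hairpins lowered 12 of the 13 against the induced controls, beside 18.5% of all genes (median -1.13, against 0.00093 for all genes). The exception was Llgl2 at -0.29 ± 0.13. Rab25, a small GTPase gene of epithelia, averaged 4.46 ± 1.02 CPM with both hairpins, against 18.7 ± 3.16 CPM in the induced controls (log2 fold change -2.07 ± 0.17, adjusted p = 1.72e-07). Cldn4 fell by 1.16 and Pkp3, the gene of the desmosome protein plakophilin 3, by 1.45 on this scale. The Trim28 hairpin lowered 5, beside 11.8% of all genes, and 8 did not pass (median -0.21, against -0.0016). Of these 5 calls, that of Epcam (adjusted p = 0.0454, with overlapping libraries) was lost in 10 of 19 alternatives and that of Cldn7 (0.0297) in 4, and both are named for this after their values were seen. Rab25, Tjp3, a tight junction gene, and Pkp3 fell by 1.13, 1.32 and 0.66 there, while Cdh1 was 0.18 ± 0.097 higher and did not pass (adjusted p = 0.188). Relative to the Trim28 hairpin, both hairpins lowered 12 of 13 as well, beside 11.7% of all genes (median -0.78, against 0.0043). Among the 12 were Cdh1 by 0.78 and Dsp by 0.77.

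Of 8 mesenchymal genes, all fell on induction, beside 32.7% of all genes (median -0.88, against -0.017 for all genes). Among the 8, Fn1, the fibronectin gene, Cdh2, that of N-cadherin, and Acta2, that of smooth muscle actin, fell by 1.20, 0.92 and 1.43. Of the 8, 5 rose with both hairpins, beside 18.1% of all genes, and 3 did not pass (median 0.54). The fibroblast markers, a separate list, did not follow against the induced controls. With both hairpins 4 of 8 fell and 1 rose (median -0.10), beside 36.7% of all genes that changed. With the Trim28 hairpin 6 of 8 fell and 1 rose (median -0.73), beside 24.9% of all genes that changed. Among these markers the collagen gene Col3a1 fell by 1.04 with both hairpins and by 1.30 with the Trim28 hairpin. Thy1, a surface glycoprotein gene, rose by 0.71 and 0.26. The rise of Thy1 with the Trim28 hairpin was lost in 5 of 19 alternatives. Acta2 averaged 1662 ± 188 CPM with both hairpins, against 646 ± 75.6 CPM in the induced controls (log2 fold change 1.36 ± 0.10, adjusted p = 7.43e-08). Cdh2 rose by 0.62 ± 0.063 and the integrin gene Itga5 by 0.71 ± 0.073. Under the Trim28 hairpin 4 of the 8 mesenchymal genes rose, beside 13.1% of all genes, Acta2 by 0.72 ± 0.10. Another 2 fell, beside 11.8% of all genes. Mmp2, a matrix protease gene, fell by 0.48 (adjusted p = 0.00372) and Cdh11, outside the rule for named genes, by 0.48. In the comparison of both hairpins with the Trim28 hairpin 4 rose and 4 did not pass (median 0.34).

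The other epithelial transcription factors mostly rose on induction and mostly fell with both hairpins, and some also fell with the Trim28 hairpin. Of 11 tested, 9 rose on induction, beside 32.7% of all genes. The median of the 11 was 5.47, against -0.017 for all genes. It was 4.45 when the 3 genes without a read in uninduced cells were set at their lower bound. Ehf, an Ets factor of epithelia, rose by 7.69 ± 0.38, and Grhl3, a relative of Grhl2, by 4.45 ± 0.30. Klf5 fell by 0.60 ± 0.19 (adjusted p = 0.00992), a call that was lost without replicate 1 of the uninduced cells. With both hairpins 9 fell, beside 18.5% of all genes, and 2 did not pass (median -1.07). Ehf fell by 1.23 and Elf5 by 1.81. The Trim28 hairpin lowered 5, beside 11.8% of all genes, and 6 did not pass (median -0.34). Here Tfap2c averaged 3.15 ± 0.0525 CPM with the Trim28 hairpin, against 9.51 ± 1.75 CPM in the induced controls (log2 fold change -1.60 ± 0.23, adjusted p = 0.000123), and Trp63, the gene of p63, fell by 1.63 ± 0.31. Relative to the Trim28 hairpin, 6 fell with both hairpins, Elf5 by 1.70 ± 0.21, beside 11.7% of all genes that fell. Klf5 rose by 0.69 ± 0.19 (adjusted p = 0.0167), a call lost without replicate 2 with the Trim28 hairpin or replicate 1 with both hairpins.

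The other transcription factors tied to the mesenchymal state were mixed. Of 9 tested, 5 fell and 2 rose on induction (median -0.42, against -0.017 for all genes), a share of changed genes near the 65.3% of all genes. Prrx1, a homeobox gene of limb and connective tissue mesenchyme, fell by 0.95 ± 0.092, and Sox9 and Foxc2 by 0.91 and 0.90. Klf8 rose to 53.0 ± 11.6 CPM in the induced controls, against 5.60 ± 0.666 CPM in uninduced cells (log2 fold change 3.24 ± 0.16, adjusted p = 2.51e-11). With both hairpins 3 fell and 1 rose (median -0.19), a share of changed genes near the 36.7% of all genes. Klf8 and Sox9 fell by 0.69 and 0.62, and Prrx1 rose by 0.27 ± 0.093 (adjusted p = 0.0296). Prrx1 alone of the 9 passed with the Trim28 hairpin, at 0.28 ± 0.093 (adjusted p = 0.0357), beside 24.9% of all genes. Neither Prrx1 rise passed when replicate 3 of the induced controls was left out, nor without replicate 1 or 2 of the hairpin group compared. Relative to the Trim28 hairpin, Foxc2 rose with both hairpins by 0.49 ± 0.17 (adjusted p = 0.0456, lost in 10 of 19 alternatives) and Klf8 fell by 0.52 ± 0.13 (adjusted p = 0.00896), with a median of -0.0074. Of all genes, 21.7% changed there.

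**Figure D5:**
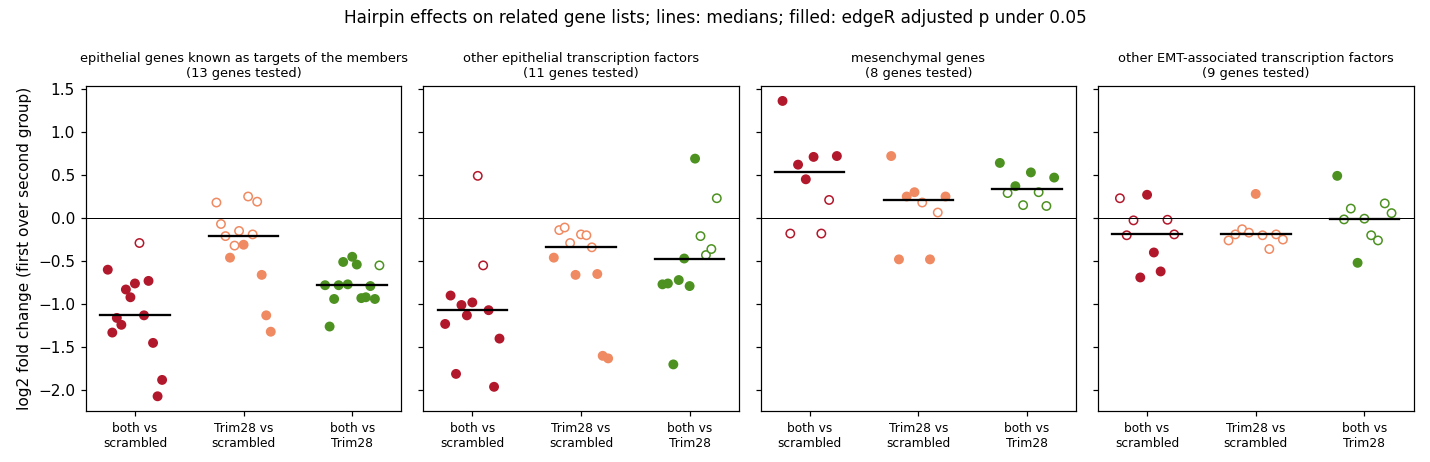
Log2 fold change (y axis, first over second group) of each tested gene of 4 related gene lists (panels; points, filled where the edgeR adjusted p was under 0.05) in the 3 comparisons between induced groups (x axes), with list medians (lines). With both hairpins against the induced controls the medians are -1.13 for epithelial target genes, -1.07 for epithelial factors, 0.54 for mesenchymal genes and -0.19 for other mesenchymal factors.

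Genes with the closest pattern to each member were sought by Pearson's r of log2 CPM over the 12 libraries, among 13223 genes. This is a description, since the libraries share groups and most of the spread lies between induced and uninduced cells. For Grhl2 these were Ripk4, Bex1 and Tead4, for Esrp1 Tdh and Cgn, for Esrp2 Sigirr, Wwc1 and Sdcbp2, and for Ovol1 Cldn7, Evpl and Fetub (r of 0.998 to 1.000). Evpl encodes envoplakin, a cornified envelope protein, and Cgn encodes cingulin, a tight junction protein. For Zeb1 they were Rassf8, Osmr and Frmd6, for Zeb2 Pla2r1, Ptplad2 and Creg1, and for Snai2 Colec12, Sirpa and Zcchc24 (r of 0.982 to 0.991). Twist1 had Rap2b, Mapkapk2 and Lbh, and Twist2 had Ext2, Ift27 and Il4ra (r of 0.969 to 0.978). Snai1 had Lmtk3, Pcnxl3 and Eml3 (r of 0.938 to 0.945). Rap2b, the closest to Twist1, averaged 65.9 CPM with both hairpins and 49.5 CPM with the Trim28 hairpin, against 37.7 CPM in the induced controls and 62.6 CPM in uninduced cells.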

How the data were processed

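The 12 libraries are TruSeq RNA libraries, whose titles give group and replicate. The authors deposited whole-number read counts per gene, made with TopHat2 2.0.12, Bowtie 1.1 and HTSeq per the submitters' processing notes. The genome build, annotation and use of strand are not given in the sources used here. Of 24207 identifiers, 23882 were found in GENCODE M21 (GRCm38), and 23856 of these overlapped their place there. Coordinates are as deposited.

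The members and lists were chosen with earlier results of these data known, from general knowledge. The test was edgeR's quasi-likelihood F-test (version 4.0.16, R 4.3.3) with TMM factors and 1 term per group over all 12 libraries (genes kept at a minimum count of 10 and total of 15). Alternatives were RLE factors, DESeq2 1.42.0, limma-voom (limma 3.58.1), no filter or a stricter one of 1 CPM in 3 libraries, a replicate block, only the 6 libraries compared, and each library left out. Ratios used read counts plus 0.5, or plus 2. Named are all members and, per list and comparison, the 3 called genes of lowest p in the commoner direction and the first in the rarer one. Some genes that this rule names are not reported here. Likeness used a prior count of 2. The script was tested on simulated counts. The numbers do not pair the samples by label. Deviations of same-numbered libraries correlated above 0.1 in all 3 pairs only between both hairpins and the induced controls.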

Additional observations from a re-analysis of the deposited data

How the results depend on the processing

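All 9 calls of members on induction held in all 19 alternatives to the model of all 12 libraries, and so did the 4 falls of the epithelial regulators and the rises of Twist1 and Twist2 with both hairpins against the induced controls. Of 760 alternative values for members, 730 kept direction and side of the threshold, 16 lost and 7 gained a call, and 7 changed sign. All that changed sign came from leaving out 1 library and belonged to changes that had not passed: Snai1 with the Trim28 hairpin (-0.27 to 0.12, and 0.023) and with both hairpins (-0.15 to 0.23, and -0.014), and, with the Trim28 hairpin, Zeb2 (-0.061 to 0.011), Grhl2 (-0.17 to 0.026) and Esrp2 (-0.12 to 0.10). Changed members with the Trim28 hairpin numbered 3, but 5 with no filter on low counts, and 1 to 4 when a library was left out. Changed genes between both hairpins and the Trim28 hairpin numbered 3154, but 4849 when only the 6 libraries compared were fitted, and 1829 to 3790 when a library was left out. The lowest came without replicate 2 with the Trim28 hairpin, and leaving out replicate 3 with that hairpin or replicate 1 with both gave 2063 and 1853. The cause was not tested. Leaving out libraries gave differences in the Zeb2 to Zeb1 log2 ratio of -0.11 to 0.037 between both hairpins and the Trim28 hairpin. Between the Trim28 hairpin and the induced controls, the Twist2 to Twist1 log2 ratio then differed by -0.034 (and -0.02) to 0.22. The Ovol1 to Zeb1 log2 ratio differed by -0.23 to 0.07 (and 0.021). RLE factors moved the median of all genes by at most 0.027 on the log2 scale.

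With replicate number as a block, 9572 genes changed on induction, 3864 with the Trim28 hairpin, 5537 with both hairpins against the induced controls and 3399 between both hairpins and the Trim28 hairpin, within 1.5 times the counts without it. Among members the block changed only the call of Ovol1 with the Trim28 hairpin (-0.34, adjusted p = 0.0232). Depth limits the ratios of Grhl2, Esrp1 and Ovol1 to uninduced cells, where 0 or 1 read was counted.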

Other observations

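Of 7 splicing regulators tested other than the Esrp genes, 4 fell and 2 rose on induction (median log2 fold change -0.23, against -0.017 for all genes), beside 65.3% of all genes that changed. The fall of Mbnl2 (-0.23, adjusted p = 0.0289) was lost in 6 of 19 alternatives. Mbnl1, which acts against fetal and stem cell splicing, fell by 0.99 ± 0.094 (SE, edgeR adjusted p = 1.18e-07), and Rbfox2 and Celf2 by 0.50 and 0.30. Rbm47, an RNA-binding protein gene of epithelia, rose by 2.49 ± 0.22 (adjusted p = 1.11e-08). With both hairpins Celf2 and Rbm47 fell against the induced controls by 0.50 ± 0.079 and 0.43 ± 0.15, and Mbnl1 rose by 0.43 ± 0.094, while 4 did not pass. Of all genes, 36.7% changed in this comparison, a share near that of the 7. The fall of Rbm47 was lost in 5 of 19 alternatives (adjusted p up to 0.150). With the Trim28 hairpin Mbnl1 and Rbm47 rose by 0.54 ± 0.094 and 0.70 ± 0.14 and Celf2 fell by 0.47 ± 0.08, beside 24.9% of all genes that changed. Rbm47 averaged 4.30 ± 0.692 CPM with both hairpins and 9.37 ± 0.987 CPM with the Trim28 hairpin (log2 fold change -1.12 ± 0.14, adjusted p = 5.29e-05). Of the 7 it alone changed between these groups, beside 21.7% of all genes.

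Of 4 genes whose transcripts the Esrp proteins splice, Enah rose by 0.64 ± 0.079 and Fgfr2 fell by 1.86 ± 0.11 on induction (adjusted p = 2.92e-06 and 2.94e-10). The other 2 did not pass, beside 65.3% of all genes that changed. Cd44 averaged 873 ± 14.6 CPM with both hairpins and 931 ± 22.5 CPM with the Trim28 hairpin, against 593 ± 63.6 CPM in the induced controls (SD, n = 3 each), and rose in both comparisons with these controls (adjusted p = 4.64e-05 and 1.51e-05). Enah fell by 0.26 in each of them (adjusted p = 0.0184 and 0.0227), calls that were lost in 4 and 3 of 19 alternatives, among them without replicate 2 of the induced controls. In each comparison 2 of the 4 did not pass, beside 36.7% (both hairpins) and 24.9% (Trim28 hairpin) of all genes that changed. Ctnnd1 fell by 0.23 between both hairpins and the Trim28 hairpin (adjusted p = 0.0146, up to 0.0686 over 19 alternatives). It alone of the 4 changed there, beside 21.7% of all genes. Gene counts do not show which isoform was made.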
